A study of Mus musculus with 30 samples.

Results

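The 43 genes described here are brain endothelial and barrier genes, taken from a list of names for the cells that line blood vessels. The list was chosen with earlier results of these data known. A probe was found for all 43 of them among the 36717 genes and transcripts that were tested on the array. By role they were divided into 6 junction genes, 5 sialomucins and adhesion molecules, 10 receptors and signalling genes, 5 transcription factors, 9 transporters, 5 genes of activation or leakiness and 3 surface identity genes. RNA came from the hippocampus and from the brain of 15 mice that were perfused with PBS. The study describes its brain samples as lacking the hippocampus. Each tissue of each mouse had 1 one-colour Agilent array. The mice were 15 to 20 months old and carry the strain label C57BL/6j, although the methods give the 3xTgAD and JHT alleles stock names that include a second strain. Strain background was not assessed. The females were 3 WT mice, 2 JHT mice, which lack mature B cells because the J segments of the Igh locus are deleted, 2 3xTgAD mice and 2 JHT_3xTgAD mice. The males were 3 3xTgAD and 3 JHT_3xTgAD mice, and there were no male WT or JHT mice. The 3xTgAD mouse carries human APP (Swedish) and tau (P301L) transgenes driven by the Thy1 promoter, which is active in neurons, so these transgenes were not targeted to vessels. JHT_3xTgAD mice, called 3xTgAD-BKO from here on, carry the alleles of the 3xTgAD line and the Igh deletion, and the WT mice were bought whereas the others were bred in house.

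Brain capillaries are sealed by tight junctions, in which claudin-5 is the main barrier-forming protein, and their cells pass few vesicles and carry transporters for glucose, amino acids, lactate, lipids and thyroid hormone. The identity of these cells is held by ETS factors such as Erg and Fli1 and by the SOX factors Sox7, Sox17 and Sox18, and the barrier is maintained by Wnt signals from the surrounding tissue. Sialomucins such as podocalyxin and endomucin coat the side that faces the blood, and Vcam1, Icam1 and von Willebrand factor are raised or released when the endothelium is activated.

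Of the 43 genes, 41 were well above background on all 30 arrays. The exceptions were Erg, which was above background on 15 arrays, and Icam1, which was above it on 13. Genotype and sex labels were checked first. Thy1, the gene whose promoter drives the transgenes, lay between 17.95 and 18.28 on the log2 scale in the hippocampus of 3xTgAD and 3xTgAD-BKO mice and between 16.85 and 17.06 in WT and JHT mice, and no probe checked the Igh deletion itself. Xist lay between 8.99 and 10.21 in females and between 2.21 and 2.28 in males, and Ddx3y was well above background in males only. Genes of hippocampal neurons passed the tissue test as higher in the hippocampus for 6 of 8, and genes of striatal, cerebellar and midbrain neurons as lower there for 8 of 8. The arrays lay on 4 slides, so that tissue was almost wholly confounded with slide, 3xTgAD and WT females lay on different slides, and 3xTgAD-BKO and 3xTgAD females shared a slide in each tissue, as did JHT and WT mice. The hippocampal array of 3xTgAD-BKO mouse 0 had 432 outlier spots against 104 to 150 on the other hippocampal arrays. Neutrophil genes stood apart in 3xTgAD-BKO males 0 and 8 and were above the WT mice in both JHT mice, most so in mouse 14, and the main results that rest on males 0 and 8 or on JHT mouse 14 are given with and without them below.

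The promoter windows of 3 genes that passed in the brain are shown because 2 of them, Cldn5 and Emcn, changed by similar amounts there, and because Itm2a holds several matches to 1 of the motifs searched. Each runs 5′ to 3′ from 250 bases before to 50 bases after the start that RefSeq annotates on GRCm38.p6, in lower case, with the base at that start and any match to a searched motif in capitals. Cldn5 (NM_013805) lies at chr16:18776597-18776896 on the plus strand, Emcn at chr3:137340828-137341127 on the plus strand and Itm2a at chrX:107403311-107403610 on the minus strand.
Cldn5: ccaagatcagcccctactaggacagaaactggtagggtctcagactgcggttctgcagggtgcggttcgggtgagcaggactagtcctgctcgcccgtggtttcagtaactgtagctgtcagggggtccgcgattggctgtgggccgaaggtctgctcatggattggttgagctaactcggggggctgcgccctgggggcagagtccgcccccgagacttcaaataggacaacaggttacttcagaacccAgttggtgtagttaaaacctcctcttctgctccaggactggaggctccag
Emcn: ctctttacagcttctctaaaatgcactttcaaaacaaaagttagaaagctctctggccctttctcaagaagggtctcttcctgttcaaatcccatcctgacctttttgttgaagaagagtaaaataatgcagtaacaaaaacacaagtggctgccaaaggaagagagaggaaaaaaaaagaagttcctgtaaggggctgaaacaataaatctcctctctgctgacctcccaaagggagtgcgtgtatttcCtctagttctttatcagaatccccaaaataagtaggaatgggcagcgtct
Itm2a: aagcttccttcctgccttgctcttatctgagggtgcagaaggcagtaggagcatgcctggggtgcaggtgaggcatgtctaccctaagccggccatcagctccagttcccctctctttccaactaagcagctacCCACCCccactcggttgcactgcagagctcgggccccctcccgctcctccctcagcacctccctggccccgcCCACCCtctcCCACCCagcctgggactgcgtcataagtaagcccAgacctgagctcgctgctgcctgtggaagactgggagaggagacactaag
The windows differ in composition, with a GC content of 58.3% and 12 CpG sites for Cldn5, 41% and 2 CpG sites for Emcn, and 62% and 7 CpG sites for Itm2a. On both strands, 5 motifs were searched in these windows, the ETS core CCGGAA, the SOX cores ACAAAG and ACAATG, the FOX core TGTTTA, the KLF box CCACCC and the kappa-B site of NF-kB. None was found for Cldn5 or Emcn, and Itm2a held CCACCC at 3 places. Windows were given for 24 of the 43 genes. CCACCC was in 14 of them (58.3%) against 31.5% of all 32851 promoters, and the SOX cores were in 9 (37.5%) against 28.6%. The shares were 20.8% against 13.4% for TGTTTA and 16.7% against 14.9% for CCGGAA, and the kappa-B site was in 0 of the 24 against 1.63% of all promoters. The listed genes were counted once if any of their windows held a motif, but all promoters were counted window by window. These shares are therefore not like for like. A match of letters is a description of the window and no evidence of binding.

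The comparison of 3xTgAD-BKO with 3xTgAD mice asks what the absence of B cells does on the disease background. Over both sexes, 3 of the 43 genes rose in the hippocampus (Cldn5, Podxl and Fli1) and 5 rose in the brain (Cldn5, Emcn, Abcg2, Itm2a and Fli1), whereas none fell. The share of all genes that passed in either direction was 1.02% in the hippocampus and 2.64% in the brain. The 43 changes had a median of 0.40 on the log2 scale in the hippocampus, where 35 were above 0, and of 0.32 in the brain, where 34 were above 0. The median over all genes was 0.01 and 0.00. At an unadjusted p under 0.05 were 21 genes in the hippocampus (19 higher, 2 lower) and 25 in the brain (22 higher, 3 lower), against 10.5% and 14.5% of all genes. In tissue RNA, fewer endothelial cells and less RNA per endothelial cell cannot be told apart. The study had listed Cldn5, Sox18, Tie1 and Apold1 on these same mice, so their direction in hippocampal females is not independent evidence. The 43 genes were also chosen with earlier results of these data known. Their counts and medians beside those of all genes thus describe the list and are not independent evidence.

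**Figure D1:**
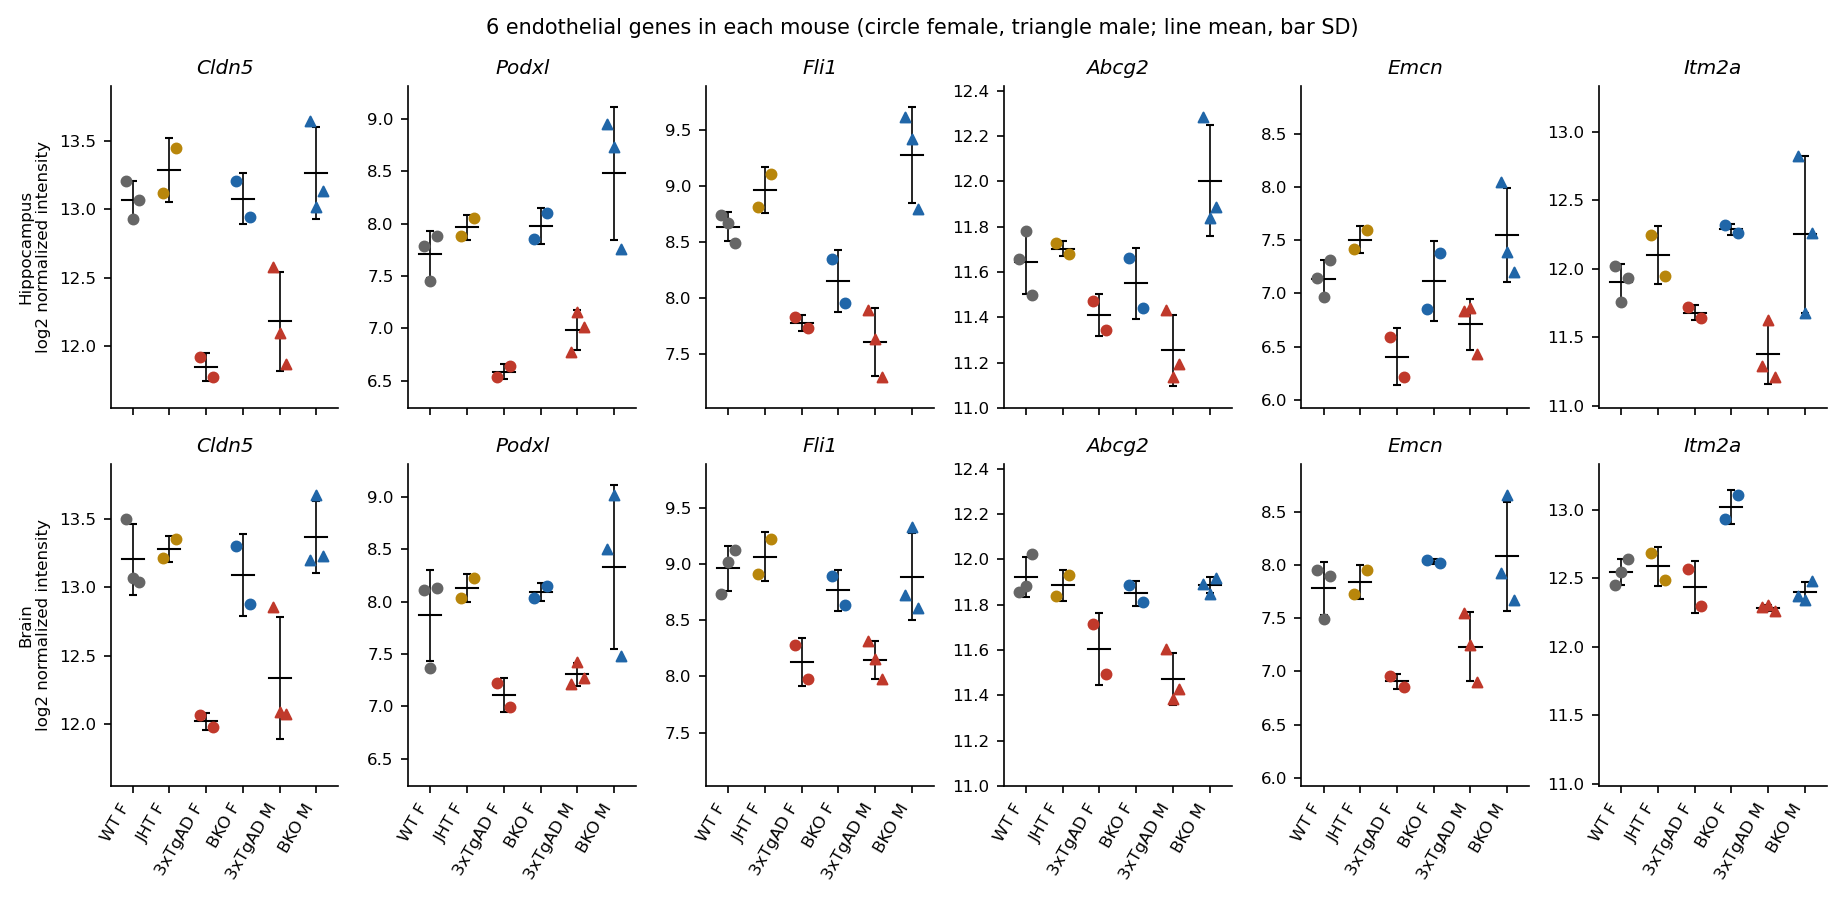
Normalized log2 intensity (y axis) of 6 endothelial genes in each mouse, by genotype and sex (x axis), with the hippocampus in the upper and the brain in the lower panels. Circles are females, triangles are males, lines are means and bars are SDs. For Cldn5 all 5 3xTgAD-BKO mice lie above all 5 3xTgAD mice in both tissues, near the WT mice.

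Cldn5, the claudin that closes the paracellular path between brain endothelial cells, rose in both tissues. In the hippocampus its log2 intensity was 13.21 and 12.95 in the 3xTgAD-BKO females and 13.65, 13.02 and 13.13 in the males, against 11.92 and 11.77 in the 3xTgAD females and 12.58, 12.10 and 11.87 in the males. The groups did not overlap, and the WT mice, at 13.21, 12.93 and 13.07, lay among the 3xTgAD-BKO mice. The change was 1.16 ± 0.16 (SE, limma adjusted p = 0.00812), or 2.23-fold, with a 95% interval of 0.80 to 1.52. In the brain the values were 13.30 and 12.88 in 3xTgAD-BKO females and 13.20, 13.67 and 13.23 in males, against 12.06 and 11.98 in 3xTgAD females and 12.85, 12.08 and 12.07 in males. Here too the groups did not overlap, although the highest 3xTgAD mouse, at 12.85, came close to the lowest 3xTgAD-BKO mouse, at 12.88. The change was 1.05 ± 0.18 (limma adjusted p = 0.0125), or 2.07-fold. Cldn5 kept its call in both tissues when any single mouse was left out.

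The other junction genes did not pass. These were Pecam1 (0.42 in the hippocampus, 0.39 in the brain), which joins endothelial cells at their borders, Cdh5 (0.40 and 0.16), the endothelial cadherin, Tjp1 (0.24 and -0.01), the scaffold under tight junctions, Esam (0.29 and 0.12), an adhesion molecule of endothelial cells and platelets, and Ocln (0.12 and 0.20), the tight junction protein occludin. All 6 were higher in the hippocampus of 3xTgAD-BKO mice, with a median of 0.34, and 5 of 6 in the brain, with a median of 0.18.

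Podxl encodes podocalyxin, a sialomucin of the luminal surface. Its hippocampal log2 intensity was 7.85 and 8.10 in 3xTgAD-BKO females and 8.95, 8.73 and 7.76 in males, against 6.54 and 6.64 in 3xTgAD females and 6.77, 7.16 and 7.02 in males. All 3xTgAD-BKO mice lay above all 3xTgAD mice, and 3xTgAD-BKO males 0 and 8 were the highest of the 15 mice. The change was 1.44 ± 0.21 (limma adjusted p = 0.00884), or 2.72-fold, and it kept its call without any single mouse. In the brain Podxl was 1.01 ± 0.26 higher (adjusted p = 0.0829), again with no overlap.

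Emcn encodes endomucin, a sialomucin of veins and capillaries. In the brain its log2 intensity was 8.05 and 8.01 in 3xTgAD-BKO females and 7.92, 8.65 and 7.67 in males, against 6.96 and 6.86 in 3xTgAD females and 7.55, 7.25 and 6.90 in males. The groups did not overlap. Emcn rose by 0.99 ± 0.19 (limma adjusted p = 0.0241), or 1.98-fold, a call that was lost without 5 of the 10 mice in turn, and was 0.77 ± 0.18 higher in the hippocampus (adjusted p = 0.104), where 1 3xTgAD-BKO female lay within the 3xTgAD range. The remaining genes of this class were Icam2, a ligand for leukocyte integrins (0.74 and 0.48), Cd34, a sialomucin shared with blood progenitors (-0.19 and 0.13), and Cd93 (0.12 and 0.04), a lectin-like receptor. The second probe of Cd34, also above background throughout, gave 0.23 and 0.05. The 5 genes had a median of 0.74 in the hippocampus, where 4 were above 0, and of 0.48 in the brain, where all 5 were.

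Fli1, an ETS factor that maintains endothelial identity and is also expressed in blood cells, rose in both tissues. In the hippocampus it was at 8.35 and 7.96 in 3xTgAD-BKO females and at 9.62, 9.42 and 8.80 in males, against 7.83 and 7.73 in 3xTgAD females and 7.90, 7.64 and 7.30 in males. There was no overlap, but the 3xTgAD-BKO males lay well above the 3xTgAD-BKO females. The change was 1.02 ± 0.17 (limma adjusted p = 0.0219), or 2.03-fold, and the call was lost without 3 of the 10 mice in turn. In the brain Fli1 was at 8.90 and 8.64 in 3xTgAD-BKO females and 8.72, 9.34 and 8.62 in males, against 8.28 and 7.98 in 3xTgAD females and 8.31, 8.15 and 7.97 in males. These groups did not overlap either, and the change was 0.69 ± 0.16 (limma adjusted p = 0.0446), or 1.61-fold, but the call was lost without 8 of the 10 mice in turn.

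The SOX factors, which act together in arterial and barrier development, did not pass over both sexes. Sox17 was 0.86 ± 0.19 higher in the hippocampus (adjusted p = 0.0701) with no overlap between the groups, Sox18 0.78 ± 0.18 (0.0889) and Sox7 0.84 ± 0.25 (0.206). In the brain the values were 0.44 for Sox17, 0.95 for Sox18 and 0.59 for Sox7. All 5 transcription factors were above 0 in both tissues, with a median of 0.86 in the hippocampus and 0.59 in the brain, the highest median of the 7 roles in each tissue. Erg was not well above background in any of the 5 3xTgAD hippocampi and is described with the males.

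Among the 9 transporters, Abcg2, the efflux pump of the luminal membrane, rose in the brain. It was at 11.89 and 11.81 in 3xTgAD-BKO females and 11.89, 11.85 and 11.92 in males, against 11.72 and 11.49 in 3xTgAD females and 11.61, 11.39 and 11.43 in males. The groups did not overlap, and the small change of 0.33 ± 0.07 (limma adjusted p = 0.029), or 1.26-fold, came with the lowest within-group spread of the 43 genes in the brain (SD 0.09). The call was lost without 5 of the 10 mice in turn. The other transporters gave values in both directions. Abcb1a, the P-glycoprotein pump, was 0.60 higher in the hippocampus with no overlap, Slco1a4, an organic anion transporter, 0.40 higher there and 0.57 in the brain, and Slc2a1, the glucose transporter, 0.34 and -0.10. Slc7a5 (-0.42 and -0.34), the large neutral amino acid carrier, Slc16a1 (-0.35 and -0.30), the lactate carrier, and Mfsd2a (-0.21 and -0.34), the lipid carrier that restrains vesicle transport, were lower in both tissues without passing, although the second probe of Slc7a5, also above background throughout, gave 0.05 and 0.21. Bsg (0.20 and 0.32) and Slco1c1 (0.23 and 0.05) were higher without passing. The class median was 0.23 in the hippocampus and 0.05 in the brain.

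The 10 receptors and signalling genes held no call over both sexes. Tie1, the orphan partner of the angiopoietin receptor Tek, was 1.23 ± 0.31 higher in the hippocampus (adjusted p = 0.128) and 0.93 ± 0.26 in the brain (0.107), where its groups did not overlap. Ptprb, the phosphatase that restrains Tek, was 0.78 ± 0.18 higher in the hippocampus (0.101) with no overlap. Kdr, the main VEGF receptor, differed by -0.03 and -0.13 on its brighter probe but by 0.61 and 0.53 on the other, which was also above background on all 30 arrays, so the probes disagree. Flt1, the second VEGF receptor, was at 0.29 and 0.12, Tek at 0.22 and 0.45, Robo4, a guidance receptor that stabilises vessels, at 0.35 and 0.33, Egfl7, a secreted matrix protein, at 0.18 and 0.29, Nos3 at 0.30 and 0.08 and Ramp2 at 0.04 and 0.01. Nostrin, a trafficking partner of the nitric oxide synthase Nos3, went the other way, at -0.41 in the hippocampus and -0.74 ± 0.18 in the brain (0.0618). In the brain Nostrin was the only one of the 43 genes whose 3xTgAD-BKO mice all lay below the 3xTgAD mice.

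Of the activation and leakiness genes, Vwf, the clotting factor stored in endothelial granules, was 1.77 ± 0.39 higher in the hippocampus (adjusted p = 0.0762), without overlap, and 1.29 ± 0.39 in the brain (0.135). Its hippocampal values in 3xTgAD-BKO mice were 12.54 and 12.09 in females and 13.90, 12.87 and 12.30 in males, and in 3xTgAD mice 10.70 and 11.24 in females and 10.90, 11.41 and 10.20 in males. Males 0 and 8 were again the highest among the males, and without them the differences were 1.40 (0.225) and 0.83 (0.487). Apold1, an early response gene of the endothelium, was lower, at -1.02 ± 0.32 in the hippocampus (0.228) and -0.97 ± 0.34 in the brain (0.207). Plvap, which forms the diaphragms of leaky vessels and is also found in the choroid plexus, differed by -0.20 and -0.09. Vcam1, the adhesion molecule that binds leukocyte integrins, was at 0.48 and 0.36. Icam1 was well above background in 4 of 5 3xTgAD-BKO and 2 of 5 3xTgAD hippocampi and in 1 of 5 brains of each genotype, so no size is given.

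Itm2a, a membrane protein enriched in brain endothelium, rose in the brain by 0.35 ± 0.07 (limma adjusted p = 0.0333), or 1.27-fold. Its values were 12.93 and 13.11 in 3xTgAD-BKO females and 12.37, 12.34 and 12.48 in males, against 12.57 and 12.30 in 3xTgAD females and 12.29, 12.30 and 12.26 in males. The groups overlapped across the sexes, since 1 3xTgAD female lay above all 3 3xTgAD-BKO males, and the call was lost without 7 of the 10 mice in turn. In the hippocampus it was 0.74 ± 0.19 higher (0.128). Ly6c1 (0.54 and 0.50) and Ly6a (0.58 and 0.62), small surface proteins of mouse endothelium, completed the 3 surface genes, all above 0 in both tissues.

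Counting groups that did not overlap over both sexes, 7 genes lay wholly above in the hippocampus (Cldn5, Podxl, Ptprb, Sox17, Fli1, Abcb1a and Vwf) against 1.46% of all genes, and 0 lay wholly below, against 0.836%. In the brain 10 lay wholly above (Cldn5, Pecam1, Podxl, Emcn, Icam2, Tie1, Sox17, Fli1, Abcg2 and Vcam1) against 2.42% of all genes and 1 wholly below, Nostrin, against 2.07%.

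**Figure D2:**
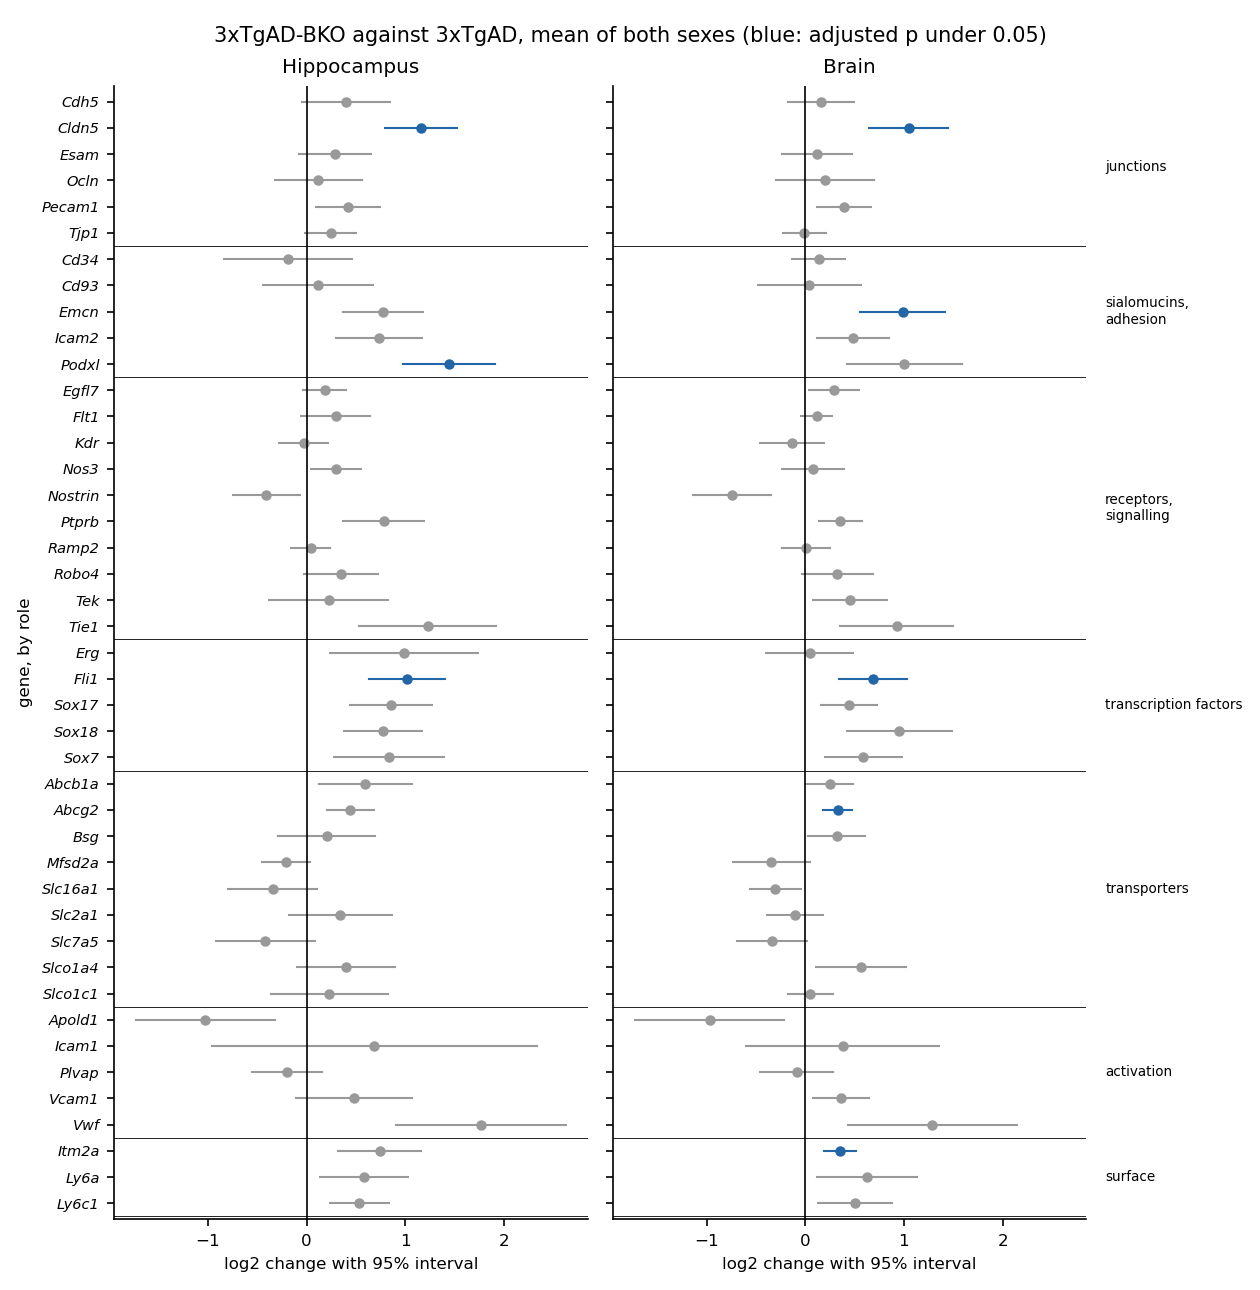
Change of each of the 43 genes between 3xTgAD-BKO and 3xTgAD mice over both sexes (x axis, log2), with 95% intervals, ordered by role, for the hippocampus and the brain. Blue marks genes with a limma adjusted p under 0.05, which are 3 in the hippocampus and 5 in the brain, all above 0. Erg and Icam1 are drawn from values that lie near background on many arrays.

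These calls rested in part on 3xTgAD-BKO males 0 and 8. Without mouse 0, Cldn5 (1.06, adjusted p = 0.00927), Podxl (1.32, 0.0118), Fli1 (0.94, 0.0343) and, in addition, Ptprb (0.63, 0.0392) passed in the hippocampus (1.09% of all genes), and Cldn5 (1.09, 0.0202), Emcn (1.03, 0.0374) and Sox7 (0.71, 0.0307) passed as higher and Nostrin (-0.60, 0.0451) as lower in the brain (2.38% of all genes). Without both males, Cldn5 (1.09, 0.0205), Podxl (1.08, 0.00546) and Itm2a (0.75, 0.0236) passed in the hippocampus (1.53% of all genes) and 0 of 43 in the brain (2.76%), where Emcn was at 0.78 (0.0505) and Cldn5 at 0.98 (0.0581), and Fli1 was at 0.78 (0.0646) in the hippocampus. The median then was 0.24 in the hippocampus, with 34 of 43 above 0, and 0.19 in the brain, with 29 above 0. With slide as a block, 16 genes passed in the hippocampus, against 11.3% of all genes, and 12 in the brain (11 higher, 1 lower), against 6.05%, so the block raised the calls over all genes as well. Cldn5 was at 1.35 (0.000569) in the hippocampus, but Abcg2 (0.31, 0.0692) and Itm2a (0.32, 0.078) no longer passed in the brain.

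In females alone, where both genotypes shared a slide, 0 of 43 genes passed in the hippocampus, against 0.37% of all genes, and 1 passed in the brain, against 1.12%. That gene was Itm2a in the brain, at 0.58 ± 0.11 (limma adjusted p = 0.0418), or 1.50-fold, with both 3xTgAD-BKO females above both 3xTgAD females. The call was lost without 2 of the 4 mice in turn and under 6 of 12 other settings. At an unadjusted p under 0.05 were 14 genes in the hippocampus (10 higher, 4 lower), against 16.4% of all genes. The largest differences of the hippocampal females, by role, were Cldn5 at 1.23 ± 0.25 (0.0847), Podxl at 1.39 ± 0.32 (0.111), Tie1 at 1.46 ± 0.48 (0.199), Sox18 at 1.07 ± 0.27 (0.133), Vwf at 1.35 ± 0.60 (0.303) and Apold1 at -1.32 ± 0.49 (0.232). Among transporters the sizes were -1.12 for Slc7a5, whose second probe gave -0.07, 0.88 for Bsg, the chaperone of the lactate carriers, and 0.54 for Slco1c1, the thyroid hormone carrier. Icam1, an adhesion molecule of activated endothelium, did not pass and was not well above background in either 3xTgAD female. Its mean in the 3xTgAD-BKO females was at least 1.67-fold brighter, with an SD of 1.24 within hippocampal groups. Further down the 3 largest of each role were Pecam1 at 0.63 and Cdh5 at 0.33 among junction genes, and Sox17 at 0.47 and Fli1 at 0.37 among transcription factors. Among receptors these were Nostrin at -0.75 and Ptprb at 0.52. Among sialomucins they were Emcn at 0.71 and Cd34 at -0.63, whose second probe gave 0.07. The surface genes were Ly6a at 0.81, Itm2a at 0.61 and Ly6c1 at 0.59.

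In males, 6 of 43 genes rose in the hippocampus, against 0.847% of all genes in either direction, and 0 passed in the brain, against 0.961%. The hippocampal calls were Fli1 (1.67 ± 0.22, limma adjusted p = 0.00783), Podxl (1.50 ± 0.26, 0.0358), Abcg2 (0.75 ± 0.14, 0.0399), Erg, Sox17 (1.24 ± 0.23, 0.045) and Cldn5 (1.09 ± 0.21, 0.0467), and none of their groups overlapped. Abcg2 was at 12.28, 11.84 and 11.89 in 3xTgAD-BKO males against 11.43, 11.14 and 11.20, and Sox17 at 9.43, 9.00 and 9.10 against 8.25, 8.11 and 7.45. Erg, the ETS factor most restricted to endothelium, was at 5.49, 5.97 and 5.05 in 3xTgAD-BKO males, and it was not well above background in any of the 3 3xTgAD males. The difference was thus at least 2.09-fold. The limma adjusted p of 0.0407 belongs to the measured values, including those not well above background, and does not test this bound. Fli1 kept its call without any 1 of the 6 males, while Podxl, Erg and Sox17 lost theirs without 5 of the 6 in turn and Abcg2 and Cldn5 without 4. The count fell to 1 without 3xTgAD-BKO mouse 0 (0.607% of all genes), where Fli1 was at 1.50 (0.0234), and to 2, 1 and 1 without 3xTgAD males 3, 4 and 5 (0.479%, 0.349% and 0.406%). It was 13 without 3xTgAD-BKO male 9 (4.03%). Without mice 0 and 8 none passed (1.13%), with Fli1 at 1.19, Cldn5 at 0.95 and Podxl at 0.77. That leaves 1 3xTgAD-BKO male, which the fit assumes to vary like the other groups, so a lost call there shows little. Within 1 slide the males can be compared through a single 3xTgAD-BKO mouse in each tissue, mouse 0 in the hippocampus and mouse 8 in the brain. The median over the 43 genes with slide as a block was 0.78 in the hippocampus and 0.47 in the brain, against 0.49 and 0.35 without it. Drd2, from the list of neurons outside the hippocampus, was lower in 3xTgAD-BKO than in 3xTgAD male hippocampi (-1.21, limma adjusted p = 0.0117). Its link to the male calls was not tested.

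**Figure D3:**
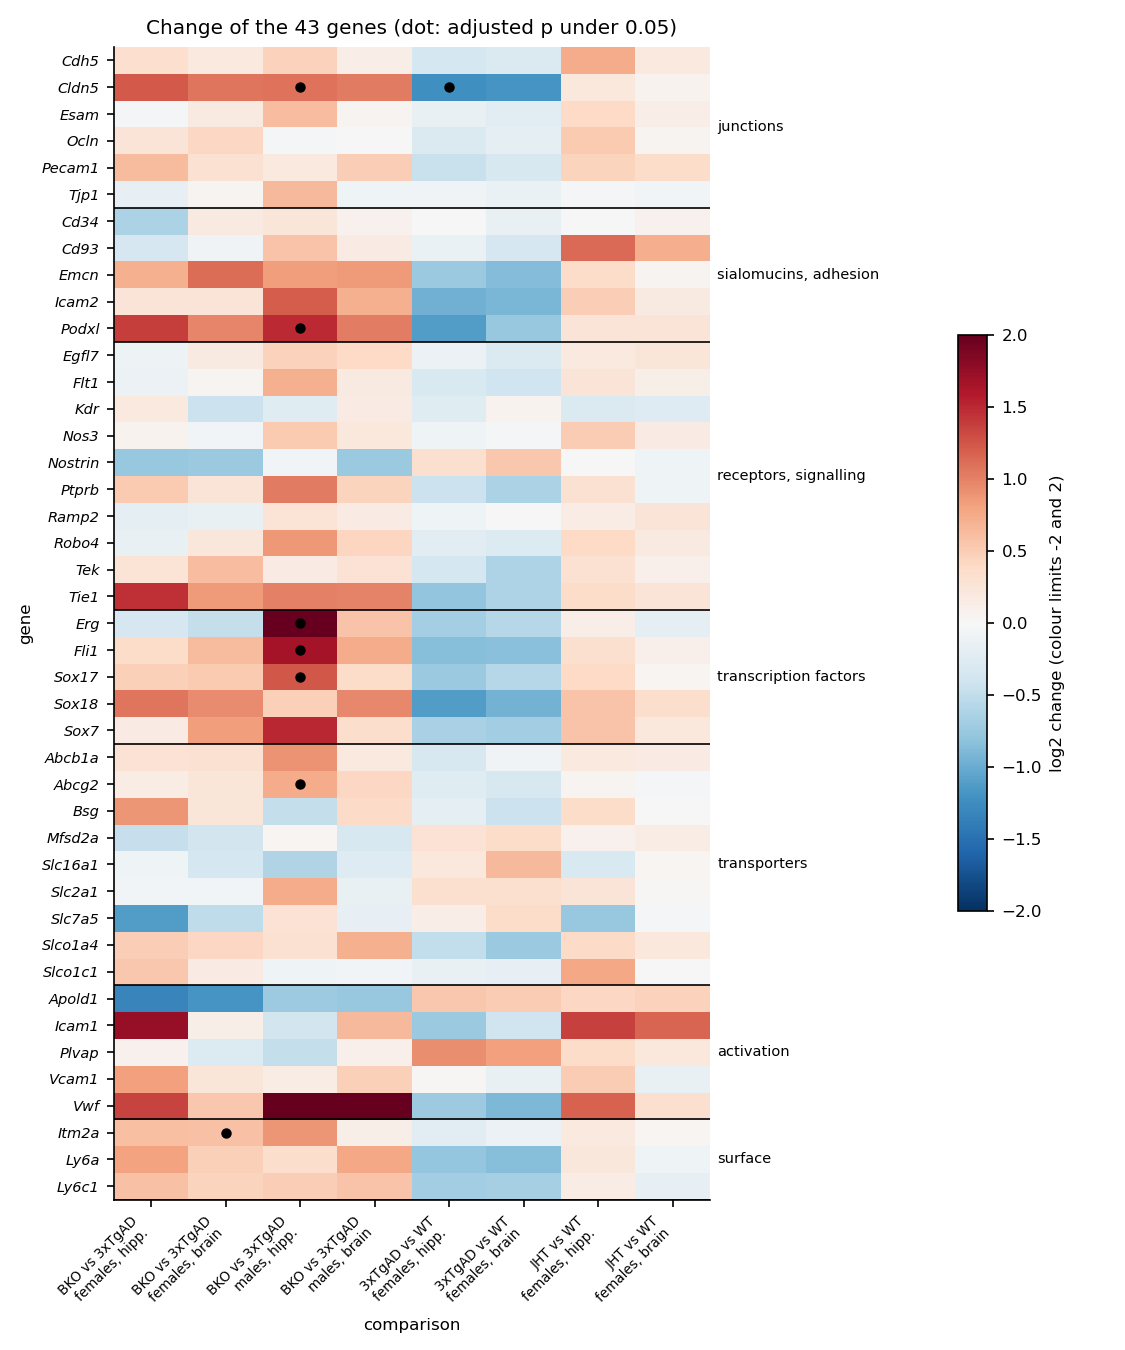
Log2 change of each of the 43 genes (rows, by role) in 8 comparisons within 1 sex (columns), 3xTgAD-BKO against 3xTgAD in females and males, 3xTgAD against WT and JHT against WT, each in the hippocampus and the brain. Colours stop at -2 and 2, dots mark a limma adjusted p under 0.05, and red in the 3xTgAD-BKO columns stands beside blue in the 3xTgAD columns for genes such as Cldn5, Podxl and Sox18.

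The difference of the change between females and males was tested directly. It passed for 0 of 43 genes in the hippocampus (0.0245% of all genes passed) and 0 in the brain (0.101%), but the hippocampal count depended on the fit, with 8 genes at lower values in females with slide as a block, where 13.4% of all genes passed, and 7 (1 higher, 6 lower) with all 30 arrays in the fit, where 8.24% did. Tjp1, Fli1 and Abcg2 passed under both of these. Without those changes, and among genes above background throughout, the nearest were Fli1 (-1.29, females minus males, limma adjusted p = 0.0831) and Tjp1 (-0.81, 0.091) in the hippocampus. Erg, at an adjusted p of 0.0787, was not well above background in the females of both genotypes or in the 3xTgAD males, so no size is given. The difference of the female change between the tissues passed for 0 of 43 genes as well (0.123% of all genes). For Cldn5 it was 0.17, with an interval of -0.64 to 0.97, which leaves room for a moderate difference either way.

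The comparison of 3xTgAD with WT females was made with B cells present. The WT mice were bought and the 3xTgAD mice bred in house, so the transgenes cannot be told apart from colony and strain background. Cldn5 fell in the hippocampus by 1.22 ± 0.23 on the log2 scale (limma adjusted p = 0.0463), from 13.21, 12.93 and 13.07 in WT to 11.92 and 11.77 in 3xTgAD mice. It was the single call among 43 genes there, against 0.746% of all genes, and it did not pass when any 1 of the 5 mice was left out, although its size stayed between -1.29 and -1.15. In the brain 0 of 43 passed, against 1.15% of all genes, and Cldn5 was at -1.18 ± 0.25 (0.0608), with 12.06 and 11.98 in 3xTgAD mice below 13.50, 13.07 and 13.04 in WT mice. The median of the 43 was -0.29 in the hippocampus, with 9 above 0, and -0.31 in the brain, with 8 above 0, while the medians of all genes were -0.01 and 0.00. At an unadjusted p under 0.05, 9 genes were lower and 1 was higher in the hippocampus, and 15 were lower and 2 higher in the brain, against 11.98% and 10.96% of all genes.

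The 3xTgAD females serve as controls of the 3xTgAD-BKO females in the comparison above, so these values are not independent of it and are given side by side. Sox18 was at -1.11 ± 0.25 (adjusted p = 0.0864) in the hippocampus against WT, and at 1.07 in 3xTgAD-BKO against 3xTgAD females. Podxl was at -1.12 and 1.39, Emcn at -0.74 and 0.71, Fli1 at -0.86 and 0.37, and Icam2 at -0.97 and 0.26. By role, 0 of 6 junction genes, 0 of 5 transcription factors and 0 of 3 surface genes were above 0 against WT in the hippocampus, with medians of -0.32, -0.74 and -0.69. The 9 genes above 0 were 4 of 9 transporters, 3 of 5 activation genes, 1 of 10 receptors and 1 of 5 sialomucins. Of the 9 genes above 0 in the hippocampus Plvap had the highest value, at 0.94 ± 0.23 in the hippocampus (0.11) and 0.83 ± 0.24 in the brain (0.173). Its hippocampal level was 11.62 and 11.60 in 3xTgAD females and 10.67, 10.54 and 10.81 in WT mice, without overlap. The 2 genotypes lay on different slides in both tissues, and slide and genotype are linked only through the 3xTgAD-BKO males. With slide as a block, 7 genes passed as lower in each tissue, against 8.88% of all genes in the hippocampus and 3.08% in the brain in either direction, and the median was -0.72 in the hippocampus and -0.67 in the brain.

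JHT against WT females compares mice without and with B cells, both free of the transgenes, within 1 slide. The WT mice were bought and the JHT mice bred in house, so the lack of B cells cannot be told apart from colony. None of the 43 genes passed in the hippocampus (0.0926% of all genes) or in the brain (0.161%). Cldn5 differed by 0.22 and 0.08. In the hippocampus 38 of 43 were above 0, with a median of 0.33 (all genes -0.01) and 4 higher and 1 lower at an unadjusted p under 0.05 (7.83% of all genes), and in the brain 32 were above 0, with a median of 0.11 and 0 genes at that p in either direction (6.31% of all genes). JHT mouse 14 stood apart for Cd93, at 12.27 in its hippocampus against 10.75 in the other JHT mouse and 10.24 to 10.56 in WT mice. Cd93 was 1.13 ± 0.35 higher over both JHT mice (adjusted p = 0.524). Without mouse 14 it was at 0.37 in the hippocampus and 0.01 in the brain, and the median of the 43 genes was 0.18 and 0.01, with the other JHT mouse assumed to vary like the other groups. The mean log2 level of 10 neutrophil genes in the hippocampus was 8.05 and 10.84 in the JHT mice, the latter in mouse 14, against 6.26 to 6.43 in WT mice, and its part in these values was not tested.

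A comparison of 3xTgAD-BKO with WT females was added after these values were seen. None of the 43 genes passed in the hippocampus (0.237% of all genes) or in the brain (0.994%), and the medians were -0.04 and -0.07. Cldn5 differed by 0.01 in the hippocampus (95% interval -0.50 to 0.53) and by -0.12 in the brain (-0.68 to 0.45). These intervals hold 0 but are too wide to show that the levels were equal. The genotypes lay on different slides, linked only through the 3xTgAD-BKO males, and with slide as a block the median was -0.55 in the hippocampus, with 35 of 43 genes below 0, and -0.41 in the brain, with 37 below 0. Tek (-1.44, limma adjusted p = 0.0485) and Abcb1a (-1.11, 0.0488) then passed as lower in the hippocampus, against 7.82% of all genes, and Ocln (-1.01, 0.0283) in the brain, against 1.9%. Cldn5 was then at -0.56 in both tissues, with intervals of -1.31 to 0.18 and -1.65 to 0.53, so the level against WT depended on the slide term.

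Further lists covered other genes of the endothelium and signals that reach it from the surrounding tissue. They held 10 further junction genes, 15 transporters, 16 genes of Wnt and barrier signalling, 20 of VEGF, angiopoietin, Notch and BMP signalling, 10 transcription factors and 12 activation genes. Over both sexes, 1 junction gene, 0 transporters, 4 Wnt genes, 2 of the VEGF to BMP list, 0 transcription factors and 1 activation gene rose in the hippocampus, and 1, 0, 1, 1, 2 and 0 rose in the brain, and none fell. Over all genes 1.02% passed in the hippocampus and 2.64% in the brain. The list medians lay between 0.11 and 0.37 in the hippocampus and between 0.01 and 0.24 in the brain.

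Fzd6, a Wnt receptor, had the largest change of the called Wnt genes. In the hippocampus it was at 7.22 and 7.10 in 3xTgAD-BKO females and 8.57, 7.22 and 7.09 in males, against 5.46 and 4.40 in 3xTgAD females and 5.24, 6.52 and 4.87 in males. The groups did not overlap, although the probe was not well above background in 2 of the 5 3xTgAD mice. Fzd6 rose by 2.15 ± 0.38 (limma adjusted p = 0.0253) in the hippocampus and by 2.04 ± 0.17 (9.71e-05) in the brain. Against WT females it fell in 3xTgAD females, with changes of -2.80 ± 0.54 (0.0478) and -2.79 ± 0.24 (0.000223), but in the hippocampus the probe was well above background in 1 of the 2 3xTgAD females, so that size is uncertain. Acvrl1, the endothelial BMP receptor ALK1, rose by 0.95 ± 0.13 (0.0067) and 0.98 ± 0.16 (0.00819), and fell in 3xTgAD against WT females, with changes of -1.20 ± 0.18 (0.0173) and -1.34 ± 0.22 (0.018). Its hippocampal values were 9.85 to 10.64 in 3xTgAD-BKO mice and 9.16 to 9.68 in 3xTgAD mice, which did not overlap.

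The remaining calls over both sexes in the hippocampus were Marveld2, the tricellular junction protein (1.42, limma adjusted p = 0.0362, and 0.59, 0.0373 in the brain), Lef1, a transcription factor of Wnt signalling (0.80, 0.0336), Wnt7a, a ligand for the barrier (0.36, 0.0338), Adgra2, a co-receptor for it (0.58, 0.0461), Vegfc, a growth factor of lymphatic vessels (0.61, 0.0253), and Lrg1, an endothelial secreted protein induced by inflammation (2.25 ± 0.39, 0.0232). Lrg1 was at 12.31 and 12.37 in 3xTgAD-BKO males 0 and 8, at 10.93 in male 9 and at 10.47 and 10.96 in the 3xTgAD-BKO females, and reached 10.32 in 3xTgAD mice. Without males 0 and 8, Lrg1 was at 1.78 (0.105) and did not pass. In the brain the transcription factors Ets1 (0.90, 0.00452) and Hhex (1.16, 0.0187) rose. Without males 0 and 8, of the 8 genes of this list that passed in the hippocampus Acvrl1 alone still did (0.86, 0.0387), while Fzd6 was at 1.89 (0.073), and in the brain Acvrl1 (0.92, 0.017), Fzd6 (1.81, 0.000325), Ets1 (0.88, 0.0188) and Hhex (1.30, 0.00873) passed and Marveld2 (0.57, 0.14) did not.

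Markers of other cell types moved beside these genes, and their part in the results was not tested. Of 14 genes of mural cells, the pericytes and smooth muscle of the vessel wall, 13 were higher in 3xTgAD-BKO mice in each tissue, 11 at an unadjusted p under 0.05 in the hippocampus and 7 in the brain, and 1 rose in each, against 10.5% and 14.5% of all genes at the unadjusted p and 1.02% and 2.64% that passed. These were Myh11 in the hippocampus (1.02, limma adjusted p = 0.0335) and Pdgfrb in the brain (0.55, 0.00882). Without males 0 and 8 these were at 0.93 (0.0895) and 0.56 (0.0388). The median was 0.50 in the hippocampus and 0.25 in the brain. The summed normalized intensity of the mural genes in the hippocampus was 27796 to 35270 in 3xTgAD-BKO females and 20296 to 32459 in males, against 15847 to 18487 and 17980 to 24343 in 3xTgAD mice and 19721 to 23159 in WT mice. In 3xTgAD against WT females, 0 of 14 mural genes were above 0 in the hippocampus, with a median of -0.36.

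Genes of meningeal fibroblasts were above 0 for 8 of 8 in the hippocampus (median 1.02) and for 7 of 8 in the brain (median 0.24), with 0 passing. Their hippocampal sum was 27175 to 32705 in 3xTgAD-BKO females against 6964 to 16371 in 3xTgAD females, and the sums of the males overlapped at the edge, at 22106 to 34019 against 17107 to 22394. Of 10 neutrophil genes, all 10 were above 0 in both tissues (median 1.95 and 1.53), with 0 passing, and between 6 and 10 of them were well above background on an array. Their mean hippocampal log2 level was 10.16 and 9.76 in 3xTgAD-BKO males 0 and 8, 6.88 in male 9, 7.18 and 7.56 in the 3xTgAD-BKO females, 6.21 to 6.97 in 3xTgAD mice and 6.26 to 6.43 in WT mice. In the brain of 3xTgAD-BKO males 0 and 8 it was 11.32 and 10.52. Podxl, Vwf, Lrg1 and Fli1 were highest in the same males among the 3xTgAD-BKO males in the hippocampus, and the values without these males are given above.

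Choroid plexus genes in the hippocampus ranged from 7.03 to 13.21 in the mean log2 level of 3xTgAD-BKO mice, from 8.46 to 13.21 in 3xTgAD mice, from 12.31 to 13.27 in JHT mice and from 6.72 to 8.04 in WT mice, so that mice of 1 genotype differed widely. They were above 0 for 10 of 10 in 3xTgAD against WT females (median 1.59), the comparison in which Plvap was at 0.94, and in JHT against WT (median 5.30). In the brain Plvap was also higher in 3xTgAD than in WT females, without passing. There Ttr, 1 of the choroid plexus genes, averaged 16.43 in 3xTgAD and 16.77 in WT females. A part of choroid plexus RNA in the Plvap values was not tested. Their median over both sexes in 3xTgAD-BKO against 3xTgAD was -0.17 in the hippocampus and 0.03 in the brain. Endfoot astrocyte genes (median 0.09 and -0.02), microglial genes (0.19 and 0.21), genes of red blood cells (-0.16 and -0.08) and immediate early genes (-0.04 and 0.04) had small medians in the same comparison. Single genes of these lists passed, in the brain Trem2, a microglial receptor (0.52, limma adjusted p = 0.00333), and the early response genes Ier2 (0.86, 0.0195), Atf3 (0.61, 0.0195) and Sgk1 (-1.19, 0.02), and in the hippocampus Ier3 (1.26, 0.0253). Without males 0 and 8, Ier2 no longer passed (0.82, 0.0839), and Trem2 (0.44, 0.0152), Atf3 (0.65, 0.044), Sgk1 (-1.44, 0.0178) and Ier3 (0.87, 0.0178) did. All 10 astrocyte and all 8 microglial genes were well above background on every array.

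**Figure D4:**
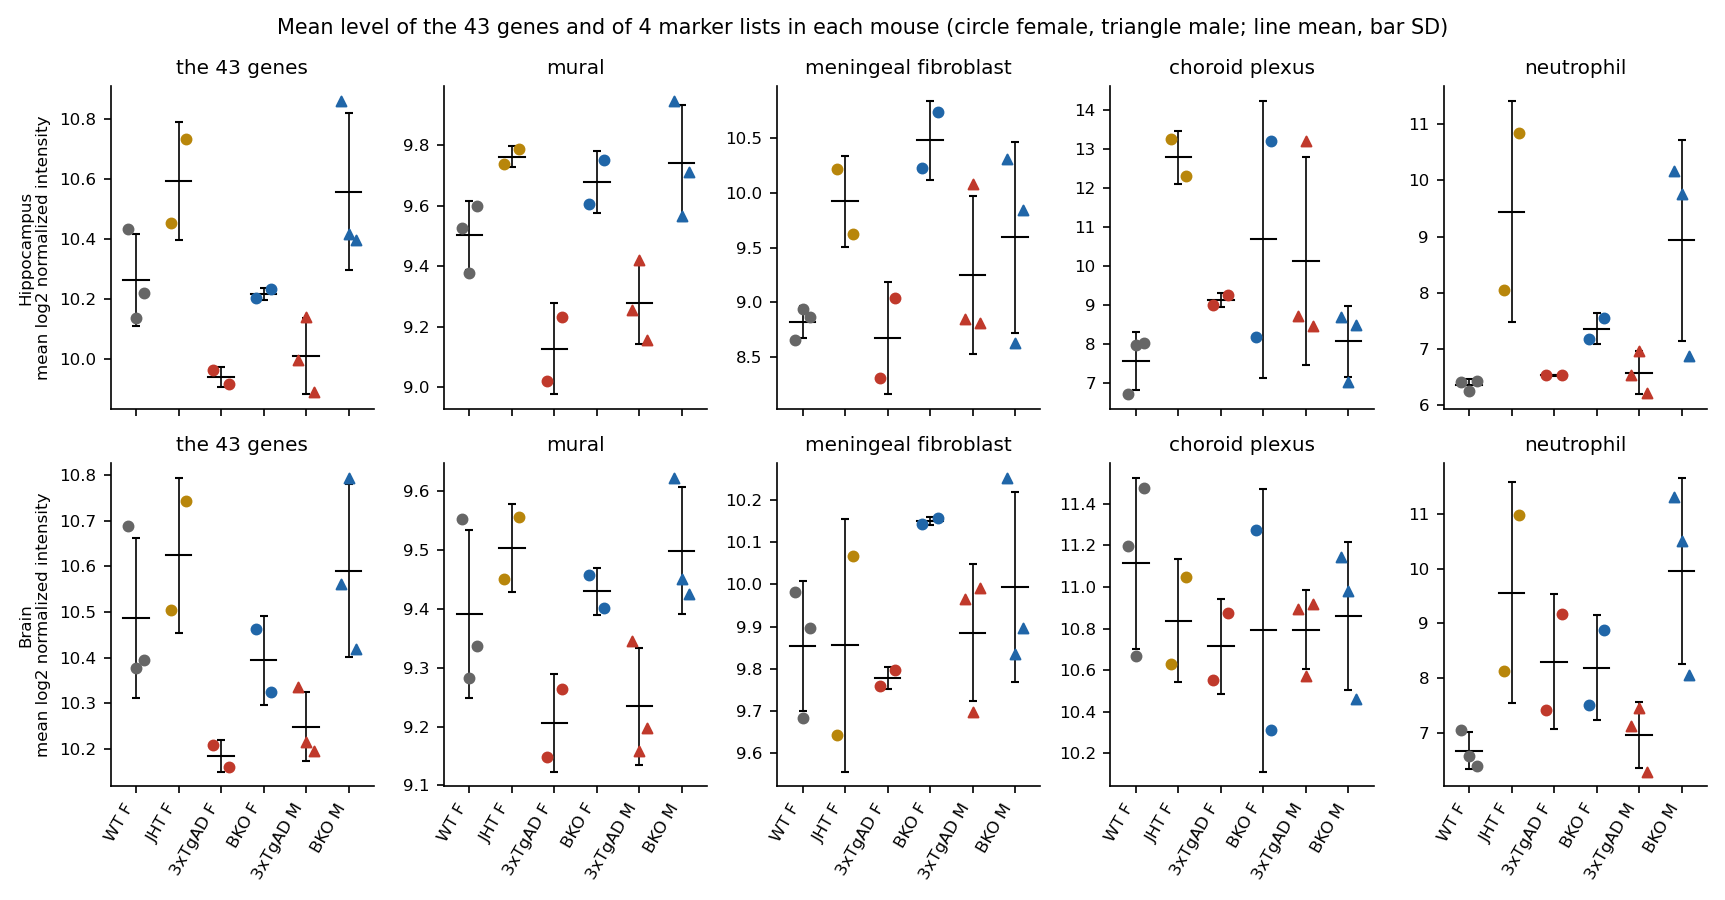
Mean log2 level (y axis) of the 43 endothelial genes and of the mural, meningeal fibroblast, choroid plexus and neutrophil lists in each mouse, by genotype (x axis) and tissue. The endothelial mean lies between 10.20 and 10.86 in the hippocampus of 3xTgAD-BKO mice and between 9.89 and 10.14 in 3xTgAD mice.

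The hippocampus and the brain were compared over all 15 mice. Of the 43 genes, 23 passed, against 51.1% of all genes, a share close to that of the list, and 5 were higher and 18 lower in the hippocampus. Higher in the hippocampus were Kdr (0.52), Slc16a1 (0.48), Pecam1 (0.32), Ramp2 (0.25), a partner of the adrenomedullin receptor, and Ptprb (0.24). Slc7a5 was lower by the largest amount, at -0.99, with log2 intensities of 9.78 to 11.46 (median 10.87) in the hippocampus and 11.33 to 12.20 (median 11.77) in the brain, and it was lower in all 15 mice. Itm2a (-0.61, limma adjusted p = 3.25e-06) was at 11.21 to 12.82 (median 11.93) in the hippocampus and 12.26 to 13.11 (median 12.48) in the brain. Emcn (-0.58, 0.000178) was at 6.21 to 8.04 (median 7.14) and 6.86 to 8.65 (median 7.73), so that its tissues overlapped widely between mice.

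The other genes lower in the hippocampus were Sox7 (-0.51), Nostrin (-0.50), Sox17 (-0.47), Slc2a1 (-0.45), Ocln (-0.44), Cd34 (-0.44), Ly6c1 (-0.42), Abcb1a (-0.40), Slco1a4 (-0.39), Esam (-0.37), Plvap (-0.37), Mfsd2a (-0.36), Nos3 (-0.32), Fli1 (-0.26) and Abcg2 (-0.18). Cldn5 differed by -0.10 and did not pass. All 15 mice went 1 way for 4 genes, Ramp2 and Slc16a1 higher and Slc7a5 and Ly6c1 lower in the hippocampus. For 16 genes 1 mouse went the other way, and for 12 of these it was 3xTgAD-BKO mouse 0, the mouse whose brain array shared a slide with hippocampal arrays. With the mouse as a block, 26 genes passed (6 higher, 20 lower), against 51% of all genes. Slide and tissue cannot be told apart outside this mouse, and with slide as a block 6 genes passed (1 higher, 5 lower), against 18% of all genes, while Mfsd2a turned to 0.76 and passed in that direction (limma adjusted p = 0.00928). Without passing, Cd34 and Ocln turned to 0.62 and 0.16 and Pecam1, Ptprb and Slc16a1 to -0.04, -0.33 and -0.27.

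**Figure D5:**
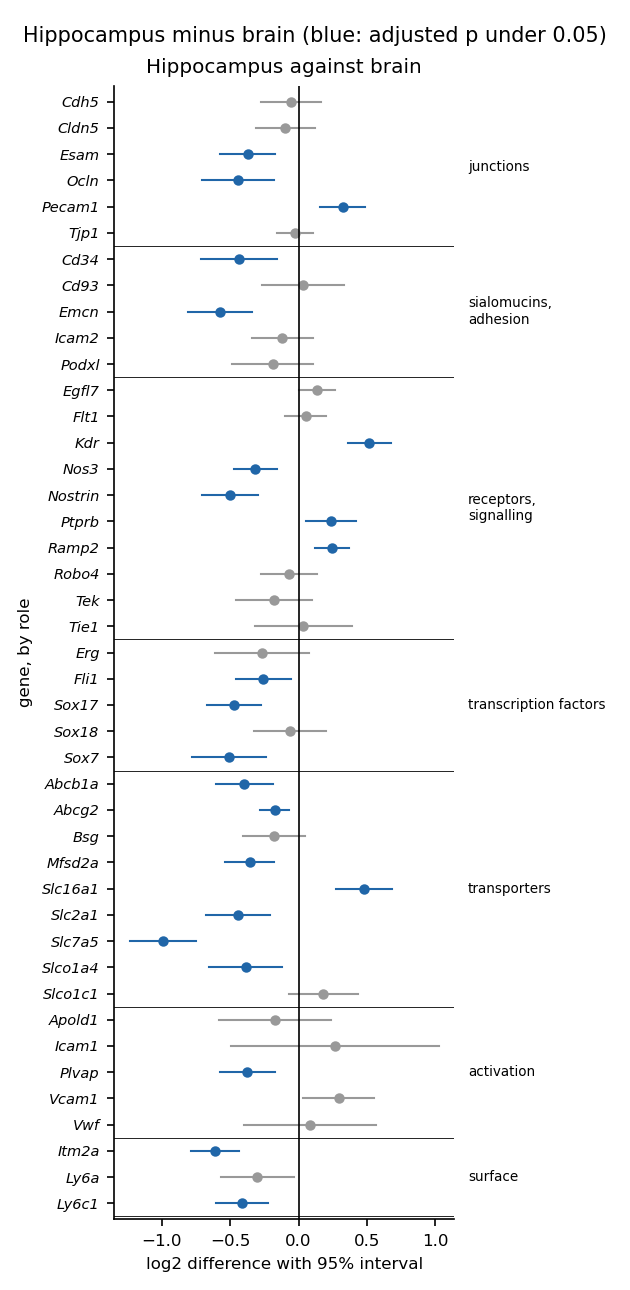
Difference of each of the 43 genes between the hippocampus and the brain (x axis, log2, hippocampus minus brain) over 15 mice, with 95% intervals, by role. Blue marks a limma adjusted p under 0.05, for 5 genes to the right of 0 and 18 to the left.

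Within genotype and sex, the spread of the 43 genes between mice had a median SD of 0.32 in the hippocampus and 0.26 in the brain on the log2 scale. It was lowest for Ramp2 in the hippocampus (0.13) and for Abcg2 in the brain (0.09), and highest for Icam1 in both (1.24 and 0.73).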

How the data were processed

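The authors deposited scanner files with the background-subtracted processed intensity of each spot (Feature Extraction 12.0.3.1) and a table of scores, which a comparison with the scanner files showed to be the Z score, within an array, of the log10 processed intensity. Of 62976 spots, 3671 control spots and spots marked as outliers were left out, and 55681 probes remained, of which 0 were saturated. The array design is annotated on mm9. Quantile normalization across the 30 arrays was applied to log2 processed intensities, and each gene was read from its probe with the highest mean. The 75th percentile of the processed intensity was 394 to 698 on hippocampal and 709 to 1384 on brain arrays, and 52.6% to 62.5% of probes were well above background.

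Groups came from the labels. A further allele of the 3xTgAD line is not reported here. limma 3.58.1 in R 4.3.3 was fitted per tissue with 6 groups of genotype and sex over 15 arrays, and over all 30 arrays for tissue differences, with Benjamini-Hochberg adjustment over 36717 genes at 0.05. Comparisons over both sexes averaged the female and male changes. P-values measure the spread between mice, of which there were 2 or 3 a group, and their number limits the precision. The fit was also run on simulated data with independent noise, which hold no slide or mouse effects and so do not test those. The series counts 15 mice for 30 arrays, so the same number was taken as the same mouse in both tissues. The deviations of 8 of 15 such pairs correlated above 0.1 (median 0.10, from -0.18 to 0.24), and the block is given with the tissue comparison.

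The members and lists were chosen with earlier results of these data known. All 43 genes are accounted for by role. Values in every mouse are given for genes that passed a comparison between genotypes and were well above background on every array of 1 group compared, and the 3 largest changes of each role in hippocampal females are given as well. Other genes named passed within a list or check a label. The alternatives were other scalings, backgrounds, probe rules, filters, slides as blocks, other arrays in the fit, the methods' t-test and leaving out mice.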

Additional observations from a re-analysis of the deposited data

Results flagged for a closer look

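Within genotype and tissue, the gap between the most extreme mouse and its nearest neighbour was large against the range of the group (Dixon's 95% criterion) for 14 of 172 groups of 5 mice, where chance gives about 1 in 20. Among 3xTgAD brains, male 3 was high for Cldn5 at 12.85 (others 11.98 to 12.08) and for Sox18 at 9.47 (8.32 to 8.58), and female 1 was high for Tjp1 at 12.08 (11.89 to 11.94), Cd34 at 13.36 (13.20 to 13.21) and Itm2a at 12.57 (12.26 to 12.30). Male 5 was low for Icam2 at 9.55 (9.76 to 9.79) and female 2 for Mfsd2a at 13.26 (13.37 to 13.41). Among 3xTgAD-BKO brains, male 8 was high for Nos3 at 12.27 (11.52 to 11.61), male 0 was low for Sox7 at 6.81 (7.43 to 7.57) and female 7 was low for Plvap at 11.35 (12.10 to 12.30). In the hippocampus, 3xTgAD female 2 was high for Flt1 at 12.85 (12.43 to 12.48), and 3xTgAD male 4 was high for Slco1c1 at 11.83 (10.52 to 10.80) and Vcam1 at 12.01 (10.88 to 11.08). The 3xTgAD-BKO male 0 was high for Ptprb at 12.65 (11.66 to 11.87).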

How the results depend on the processing

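The median change of the 43 genes moved by less than its spread under 175 of 185 alternatives other than leaving out 1 mouse. Its sign turned or it reached 0 under 4 of these, all for the tissue difference of the female change, and under 3 of 109 that left out 1 mouse, 2 for that difference and 1 for 3xTgAD-BKO against WT in the brain (0.01 without female 7). The count of passing genes stayed within 1.5 times under 112 of 185. Of 206 values of genes that passed a comparison between genotypes, 144 kept their call. Every count below is of the 43 genes, and the cause of each change was not tested.

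For 3xTgAD-BKO against 3xTgAD females the count was 0 in the hippocampus and rose to 1 with a filter on dim probes, slide as a block, all 30 arrays in the fit or a threshold of 0.1, and to 9 with the methods' t-test unadjusted. In the brain it was 1 and became 2 with slide as a block, 15 with that t-test, and 0 with 75th-percentile scaling, the deposited scores, the 2 groups alone, all 30 arrays or that t-test after Benjamini-Hochberg. For males in the hippocampus it was 6 and became 12 with the filter or a threshold of 0.1, 20 (median 0.78) with slide as a block, 15 with all 30 arrays, 18 with the t-test, and 0 with the groups alone, the adjusted t-test, or mice 0 and 8 left out. For males in the brain it was 0 and became 1 with normexp (median 0.21) or all 30 arrays, 3 with the filter, 6 (median 0.47) with slide, 9 with the t-test and 2 at 0.1, and the median without mice 0 and 8 was 0.18.

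Over both sexes in the hippocampus the 3 genes became 5 with normexp, 6 with the filter or at 0.1, 16 with slide, 12 with all 30 arrays, 19 with the t-test, and 0 with the groups alone or the adjusted t-test. In the brain the 5 became 3 with 75th-percentile scaling, 2 with the deposited scores, 8 with normexp, the filter or at 0.1, 12 with slide, 22 with the t-test, 1 after its adjustment, and 0 with the groups alone or without mice 0 and 8 (median 0.19).

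For 3xTgAD against WT in the hippocampus the 1 gene became 0 with 75th-percentile scaling, the groups alone or the adjusted t-test, 2 with the filter, all 30 arrays or at 0.1, 10 with the t-test and 7 (median -0.72) with slide. In the brain the 0 became 4 with normexp, 1 with the mean of a gene's probes or all 30 arrays, 2 with the filter, 3 at 0.1, 11 with the t-test and 7 (median -0.67) with slide. For JHT against WT the t-test gave 6 in the hippocampus and 1 in the brain. For 3xTgAD-BKO against WT the 0 in the hippocampus became 2 (median -0.55) with slide, 1 with all 30 arrays and 5 with the t-test, and the 0 in the brain became 1 with the filter, slide (median -0.41) or at 0.1 and 3 with the t-test. The sex difference in the hippocampus gave 2 with the filter, 8 with slide, 7 with all 30 arrays and 3 at 0.1, and its median in the brain with slide was -0.29. The tissue comparison gave 6 with slide, where Cd34 (0.62), Mfsd2a (0.76), Ocln (0.16), Pecam1 (-0.042), Ptprb (-0.33) and Slc16a1 (-0.27) reversed. The mouse number as a block gave 26 for the tissue comparison (median -0.18) and 0 for the tissue difference of the female change (median 0.00), and it changed no other call named.

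With 1 mouse left out at a time, the counts for 3xTgAD-BKO against 3xTgAD ran from 0 to 0 and from 0 to 1 in females, from 1 to 13 and from 0 to 2 (median 0.22 to 0.45) in males and from 2 to 4 and from 1 to 8 over both sexes, in the hippocampus and the brain. The 13 and the 8 came without 3xTgAD-BKO male 9. For 3xTgAD against WT they were 0 in both tissues throughout, for JHT against WT 0 to 1 in both, and for 3xTgAD-BKO against WT 0 to 1 and 0. The sex difference gave 0 to 4 in the hippocampus and 0 to 1 in the brain, and the tissue comparison 21 to 25. Signal over background limits Erg and Icam1.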
